A study of Drosophila melanogaster with 2 samples.

Results

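The 9 genes described here make, store, break down and take up the sugars trehalose and glycogen in Drosophila melanogaster: Glyp, Pgm1, UGP, AGBE, Tps1, Treh, Tret1-1, Glut1 and sut1. They were listed by name, with earlier results of these data already known, and all 9 were found among the 13981 protein-coding genes of the annotation. Their binding by the transcription factor Mio, an older name of Mondo, was read from ChIP-seq, the sequencing of DNA pulled down with a chromatin protein. The material was whole wandering third-instar larvae, males and females pooled, of the strain Mio-GFP, which stably carries an insertion that makes Mio fused to green fluorescent protein (GFP) at its C-terminus, per the labels. An antibody against GFP pulled down the tagged protein from sonicated chromatin. The design is a single group of 2 biological replicates, which the labels call 5 and 1, without a second genotype, diet or treatment. Whole larvae mix all tissues, so binding in a few cells and weak binding in many cells cannot be told apart, and no source used here gives the promoter that drives the fusion.

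Trehalose is the main sugar of insect blood, and glycogen is the store kept in fat body and muscle. Glycogen phosphorylase frees glucose 1-phosphate from glycogen, phosphoglucomutase turns it into glucose 6-phosphate, and UGP makes UDP-glucose, the building block of both sugars. Mondo, the fly counterpart of MondoA and ChREBP, which respond to glucose in vertebrates, binds DNA as a pair with Mlx (bigmax). Such pairs are known to recognise E-boxes, of which CACGTG is the classical form.

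Peaks were read from 4 lists in the dm6 build of the fly genome. The optimal list held 1146 peaks that passed the authors' reproducibility filter. The relaxed lists hold background beside true peaks, as their deposited names say. There were 29999 such peaks for replicate 5, 30000 for replicate 1 and 28423 when both were pooled. Rank 1 is the strongest peak of a list, by the authors' own signal value, and signal is compared only within a list. A promoter peak is the strongest peak whose summit, its highest point, lay within 500 bp of a transcription start site (TSS) of the gene, and negative distances are upstream. The optimal list draws on the replicate and pooled lists, so it is not a further measurement. How many reads lie behind each library is unknown.

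Glyp and Pgm1, the 2 enzymes that carry glucose out of glycogen, were the 2 members with an optimal promoter peak, against 6.17% of all genes. Counting from 2 kb before a gene to its end, 3 of the 9 genes held an optimal summit, sut1 being added, against 9.56% of all genes. In the pooled relaxed list 8 of 9 had a promoter peak, all but Tps1, against 47.5% of all genes. In both replicate lists 7 of 9 had one, all but Tps1 and AGBE, against 30.0% of all genes. When each replicate was cut at its strongest 1146 peaks, Glyp alone passed in both, against 3.45% of all genes. In at least 1 replicate 4 passed, against 8.44% of all genes: Glyp and UGP in replicate 5, and Glyp, Pgm1 and Treh in replicate 1. None of the 9 had a promoter peak among the 573 strongest optimal peaks, against 3.15% of all genes. With 9 genes and no second condition these counts carry no test.

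**Figure D1:**
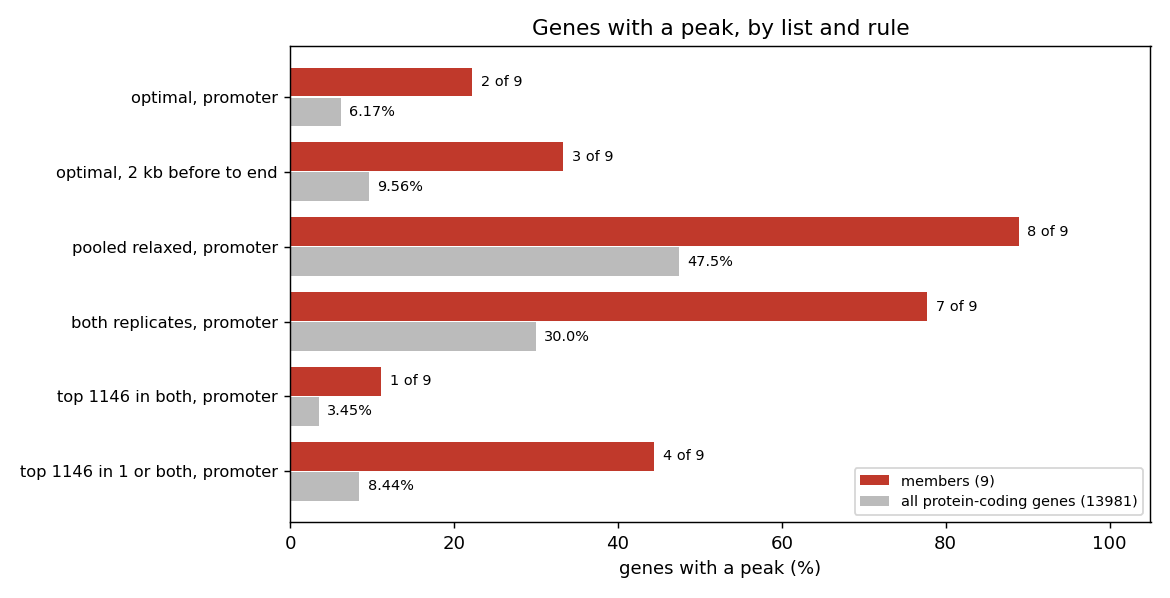
Share of genes with a peak (percent) under 6 rules, for the 9 sugar storage and uptake genes (red) and all 13981 protein-coding genes (grey). The numbers beside the bars give the members' count and the share of all genes, such as 2 of 9 against 6.17% for optimal promoter peaks.

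The members were longer than most genes. The 9 genes had a median length of 6484 bp, against 2163 bp for all genes. A single TSS was annotated for 5 of the 9, against 10282 of 13981 genes. Among all genes a pooled promoter peak was found at 39.4% of those with 1 TSS, 63.2% of those with 2 and 95.6% of the 45 genes with 6, the number that Treh has. How far length and TSS number account for the members' counts was not tested.

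Glyp encodes glycogen phosphorylase, which releases glucose 1-phosphate from glycogen. The gene (FBgn0004507) lies on the plus strand of 2L, 2130813 to 2137296, with 1 TSS. Its peak stood at rank 715 of the optimal list (signal 90.2), with the summit 75 bp upstream of the TSS, between genes. The nearest TSS of another gene, CG4259, was 1501 bp away. In replicate 5 the promoter peak ranked 683 (signal 58.7, −88 bp), and in replicate 1 it ranked 857 (signal 35.8, −95 bp). The replicate summits were 7 bp apart, and the ranks of the 3 relaxed lists were close together.

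The sequence under the Glyp optimal summit is shown because it holds an inverted repeat at the place where both replicates peaked. It is chr2L:2130688-2130788, dm6, plus strand, 101 bp centred on the summit, with the 2 arms of the repeat in capitals.
Glyp: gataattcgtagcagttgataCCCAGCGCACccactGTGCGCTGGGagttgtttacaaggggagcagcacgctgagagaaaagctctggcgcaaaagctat
Each arm was 10 bp, with 5 bp between them, and the repeat ran from −104 to −80 bp of the TSS. Its centre lay 4 bp from the replicate 5 summit, 3 bp from the replicate 1 summit and 17 bp from the optimal summit. Inverted repeats with arms of 10 bp or more and at most 10 bp between them occurred in 6 of 1117 nuclear optimal windows of this length (0.537%) and in 156 of 28389 pooled relaxed ones (0.55%). The search was made after the sequence had been seen, so the match is a description.

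Pgm1 encodes phosphoglucomutase, which interconverts glucose 1-phosphate and glucose 6-phosphate. The gene (FBgn0003076) lies on the minus strand of 3L, 16126018 to 16128531, with 1 TSS. Its peak stood at rank 664 of the optimal list (signal 92.6), 92 bp upstream of the TSS and 994 bp from the TSS of SsRbeta, the nearest other gene. The replicates were far apart here. In replicate 5 the promoter peak ranked 13813 (signal 15.6, −231 bp), and in replicate 1 it ranked 140 (signal 82.6, −113 bp). Replicate 5 had no summit within 100 bp of the optimal one, and 35 of the 1146 optimal peaks lacked one in that replicate. Its stronger peak nearby ranked 4417 (signal 27.6), at −528 bp from Pgm1 and 558 bp from the TSS of SsRbeta.

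The Pgm1 promoter is shown to place the 3 summits. It is chr3L:16128573-16128812, dm6, minus strand, and the capitals mark 3 bases at each summit, from left to right that of replicate 5, of replicate 1 and of the optimal list.
Pgm1: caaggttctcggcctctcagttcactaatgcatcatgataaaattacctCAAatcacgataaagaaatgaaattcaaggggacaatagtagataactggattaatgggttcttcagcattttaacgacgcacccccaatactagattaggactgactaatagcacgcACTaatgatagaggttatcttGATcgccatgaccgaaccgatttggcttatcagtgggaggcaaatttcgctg
The replicate summits lay 118 bp apart. The pooled list placed its peaks at −92 bp (rank 663) and at −304 bp (rank 3961, signal 40.7), and the 101 bp around the stronger summit held neither CACGTG nor any other word of the E-box form CANNTG.

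UGP encodes UDP-glucose pyrophosphorylase, which makes the UDP-glucose used for glycogen and trehalose. The gene (FBgn0035978) lies on the minus strand of 3L, 9350867 to 9358935, and has 2 TSSs. No optimal summit lay near it, and the pooled promoter peak ranked 1806 (signal 59.5). At the upstream TSS the peak ranked 1887 in replicate 5 (signal 39.6, −70 bp) and 4928 in replicate 1 (signal 16.2, −49 bp). At the inner TSS it ranked 891 in replicate 5 (signal 53.0, +25 bp) and 4870 in replicate 1 (signal 16.3, −141 bp). Both TSSs thus had a peak in both replicates. Those at the upstream TSS matched within 100 bp, whereas those at the inner TSS lay 166 bp apart, and the replicate 5 summit that did match the replicate 1 peak there ranked 26915 (signal 10.1).

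The upstream TSS of UGP faces that of Svip, a gene on the other strand, and the pooled summit lay 71 bp before UGP and 7 bp inside Svip, in its 5′ UTR. The gap between the genes is shown because the peak cannot be assigned to either. It is chr3L:9358936-9358998, dm6, minus strand, 63 bp, and the capitals mark CANNTG.
UGP: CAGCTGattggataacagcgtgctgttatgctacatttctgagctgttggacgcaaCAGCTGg
Both E-box-like words were CAGCTG, 1 at each end of the gap, and CACGTG was not found.

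AGBE encodes the glycogen branching enzyme, which adds the side chains of glycogen. The gene (FBgn0053138) lies on the plus strand of 2R, 13171401 to 13174796, with 1 TSS. Its promoter peak ranked 8509 in the pooled list (signal 27.5, +57 bp, in the 5′ UTR) and 9144 in replicate 5 (signal 19.4, +41 bp), and replicate 1 had none. Within the gene the strongest peak of replicate 5 ranked 3724, 721 bp downstream of the TSS in an intron, whereas that of replicate 1 ranked 2856, 2858 bp downstream in a coding exon. Neither had a partner within 100 bp in the other replicate.

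Tps1 encodes trehalose 6-phosphate synthase, the enzyme that makes trehalose from UDP-glucose and glucose 6-phosphate. The gene (FBgn0027560) lies on the plus strand of 2L, 4388327 to 4392778, with 1 TSS. No list had a summit within 500 bp of that TSS, and replicate 5 had none from 2 kb before the gene to its end. The nearest pooled summit ranked 18548 (signal 18.2), 779 bp upstream and 192 bp from a TSS of Psf2. In replicate 1, summits ranked 5503 (signal 15.5, −703 bp) and 11263 (signal 12.0, −1343 bp), the second in a coding exon of Psf2. Counting the strongest summit up to the gene end, Tps1 was last of the 9 in the pooled list and in each replicate.

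The Tps1 promoter is shown as the one without a peak. It is chr2L:4388077-4388326, dm6, plus strand, the 250 bp before the TSS, with GAGAG and its reverse complement CTCTC in capitals.
Tps1: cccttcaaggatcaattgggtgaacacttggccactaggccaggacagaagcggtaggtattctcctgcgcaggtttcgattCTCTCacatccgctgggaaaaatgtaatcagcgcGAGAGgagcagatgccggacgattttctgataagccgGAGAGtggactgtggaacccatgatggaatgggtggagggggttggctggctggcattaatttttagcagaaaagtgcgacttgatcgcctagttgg
GAGAG was thus present at a promoter with no peak. From 250 bp before to 50 bp after the gene start, the word was found in 5 of the 9 genes, Glyp, Tps1, Treh, Tret1-1 and Glut1, and in 29.7% of 13968 nuclear promoters.

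Treh encodes trehalase, which splits trehalose into 2 glucose molecules. The gene (FBgn0003748) lies on the plus strand of 2R, 21074018 to 21088945, with 6 TSSs, here numbered along the gene. The pooled promoter peak ranked 2443 (signal 51.5), at −218 bp from TSS 3, in an intron. In replicate 5 the strongest promoter peak was at TSS 5 (rank 4927, signal 26.2, +40 bp), and in replicate 1 it was at TSS 3 (rank 978, signal 33.5, −177 bp). The replicates thus differed in which TSS carried the strongest peak, 4372 bp apart. At TSS 3 replicate 5 ranked 8845 (signal 19.7, −218 bp).

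Strong summits also lay upstream of Treh, outside 500 bp of its TSSs. In replicate 5 the strongest summit near the gene ranked 824 (signal 54.7), at −984 bp from the first TSS and 245 bp from the TSS of CG10527. In replicate 1 a summit ranked 993 (signal 33.2), below the one at TSS 3, at −855 bp from the first TSS and 374 bp from CG10527. The pooled list kept them as 2 peaks, at −1024 bp (rank 1276, signal 69.6) and −823 bp (rank 2904, signal 47.4). Both lay closer to CG10527, on the other strand, than to Treh.

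Tret1-1 encodes a trehalose transporter of the cell membrane. The gene (FBgn0050035) lies on the plus strand of 2R, 11665768 to 11674782, within Roc2, a gene on the other strand from 11652756 to 11679354. Of its 2 TSSs the first had a peak and the second, inner one had none in any list. The peak ranked 2594 in the pooled list (signal 50.1, +34 bp, in the 5′ UTR), 6653 in replicate 5 (signal 22.8, −17 bp) and 1948 in replicate 1 (signal 24.0, +77 bp). The summits of all 3 lists lay within 100 bp of each other, and the TSS of Roc2, at 11679354, lay beyond the end of Tret1-1.

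Glut1 encodes a glucose transporter of the same carrier family as the mammalian GLUT proteins. The gene (FBgn0264574) lies on the plus strand of 3L, 914074 to 993788, and at 79715 bp is the longest of the 9. The first of its 2 TSSs had no peak in any list. At the inner TSS the peak ranked 5380 in the pooled list (signal 34.8, +327 bp, in an intron), 4397 in replicate 5 (signal 27.6, +480 bp) and 14684 in replicate 1 (signal 10.9, +331 bp). All lay downstream of the TSS, and the replicate summits were 149 bp apart.

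An intron of Glut1 held the only CACGTG of the 9 genes with a summit within 100 bp in all 3 relaxed lists. The window is chr3L:968272-968372, dm6, plus strand, 101 bp centred on the pooled summit, with CACGTG in capitals.
Glut1: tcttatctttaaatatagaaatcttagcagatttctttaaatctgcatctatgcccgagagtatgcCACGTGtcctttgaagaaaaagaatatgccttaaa
The word lay 54264 bp from the gene start. Its middle was 18.5 bp from the pooled summit (rank 5548, signal 34.2), 21.5 bp from the replicate 5 summit (rank 21346, signal 11.9) and 54.5 bp from the replicate 1 summit (rank 4788, signal 16.4). From 2 kb before each gene to its end, 23 copies of CACGTG were found in 6 of the 9 genes, 12 of them in Glut1. The share of all genes with a copy was not counted, and longer genes span more sequence. Of the 23 copies, the 1 shown here (4.35%) had a summit within 100 bp in all 3 relaxed lists. A copy in an intron of Tret1-1 lay 68.5 bp from a pooled summit of rank 19754, with no replicate summit within 100 bp. In the nuclear genome 141 of 16785 copies (0.84%) had a summit within 100 bp in all 3.

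The gene sut1 encodes a member of the sugar transporter family. It (FBgn0028563) lies on the plus strand of 2R, 8082976 to 8087151, with 1 TSS, and overlaps slv, a gene for a SWEET-type sugar carrier on the minus strand from 8080559 to 8083357. The optimal summit in its reach ranked 505 (signal 104.6), at −712 bp from sut1 and 44 bp from a TSS of slv, in the 5′ UTR of slv. In replicate 5 that peak ranked 822 (signal 54.7), and in replicate 1 it ranked 410 (signal 50.3). It thus stood at a start site of a neighbouring sugar carrier gene.

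Closer to the sut1 TSS a second peak ranked 1606 in the pooled list (signal 62.9, −126 bp). It ranked 1224 in replicate 5 (signal 46.9, −105 bp) and 5793 in replicate 1 (signal 15.2, −158 bp). This one also lay inside slv, 225 bp from a TSS of slv in the pooled list, so binding of sut1 and of slv cannot be told apart. When only summits nearest to a TSS of the gene itself were counted, a rule added after seeing the data, Glyp and Pgm1 were left as the members with an optimal summit, against 6.23% of all genes.

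**Figure D2:**
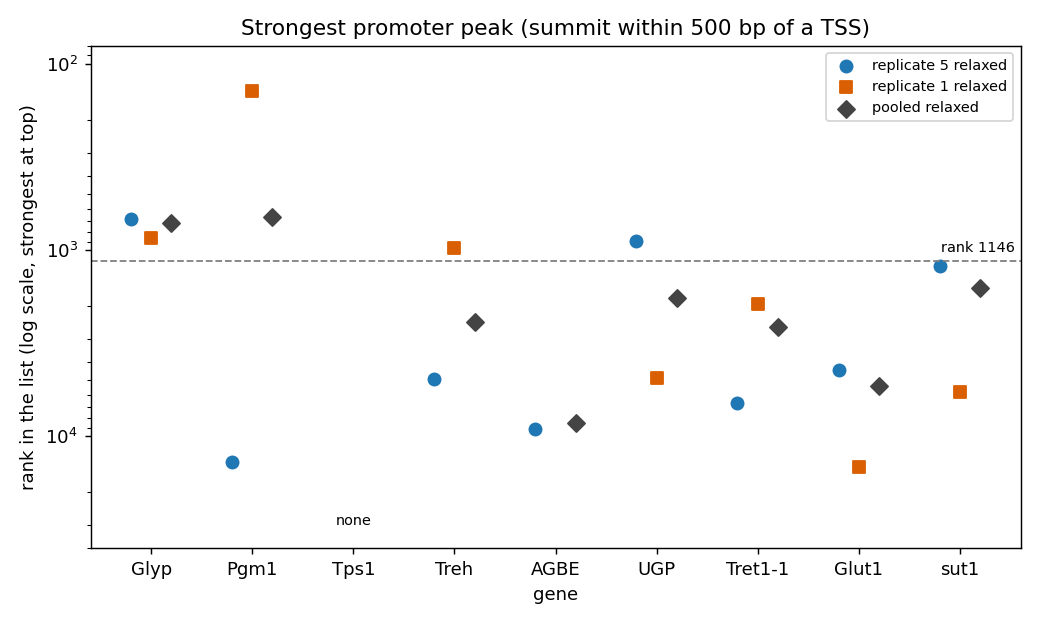
Rank of the strongest promoter peak of each gene (log scale, strongest at the top) in the relaxed lists of replicate 5 (blue circles), replicate 1 (orange squares) and the pooled data (grey diamonds); the dashed line marks rank 1146. Glyp lies above the line in all 3 lists, Pgm1 at 13813 in replicate 5 and 140 in replicate 1, AGBE has no point for replicate 1, and Tps1 has none at all.

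In the pooled list the order of the promoter peaks was Pgm1, Glyp, sut1, UGP, Treh, Tret1-1, Glut1 and AGBE, with Tps1 last for want of a peak. Among the 6646 genes with a pooled promoter peak, Pgm1 held place 499, Glyp 547 and AGBE 4040. The members' median rank was 2443 with Tps1 placed last, and 12.2% of all 13981 genes had a promoter peak ranked at least as high. Among genes with such a peak the median rank was 6190. The order differed between the replicates, that of replicate 5 starting with Glyp and UGP and that of replicate 1 with Pgm1 and Glyp. Glyp stood before UGP, sut1, Glut1, Treh and Tret1-1 in both. UGP also stood before sut1, sut1 before Glut1, and Treh before Tret1-1 in both. Treh and Tret1-1 came after UGP, sut1 and Glut1 in replicate 5 and before them in replicate 1. Pgm1 was first of the 7 genes with a promoter peak in both in replicate 1 and last in replicate 5.

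Across the replicates, the 7 genes with a promoter peak in both differed by a median of 2.24 on the log2 scale of the rank ratio, in size and without sign. The median was 1.09, or 2.13-fold, over the 4197 genes with a promoter peak in both. Each replicate's strongest promoter peak was taken by itself, so the summits compared can differ. They lay 4372 bp apart at Treh, 166 bp at UGP, 149 bp at Glut1 and 118 bp at Pgm1, and at most 94 bp at the others. With replicate summits required within 100 bp of the pooled summit, the members' median was 1.77, over Glyp, Treh, UGP, Tret1-1 and sut1. Glyp had the smallest ratio of the 7, with a log2 rank ratio (replicate 5 over replicate 1) of −0.33, or 1.25-fold, and 83.1% of the 4197 genes had a larger one. Pgm1 had the largest, 6.62, or 98.7-fold, and 1 of the 4197 genes had a larger one. With 1000 bp allowed from the TSS in place of 500 bp, the log2 ratio of Pgm1 was 4.98. The remaining ratios were 2.33 for Treh, 1.77 for Tret1-1, −1.74 for Glut1, −2.24 for sut1 and −2.45 for UGP. Of the 7 genes, 4 ranked higher in replicate 5 (Glyp, UGP, Glut1 and sut1) and the other 3 in replicate 1. There is no common direction, and 2 libraries allow no test of it.

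**Figure D3:**
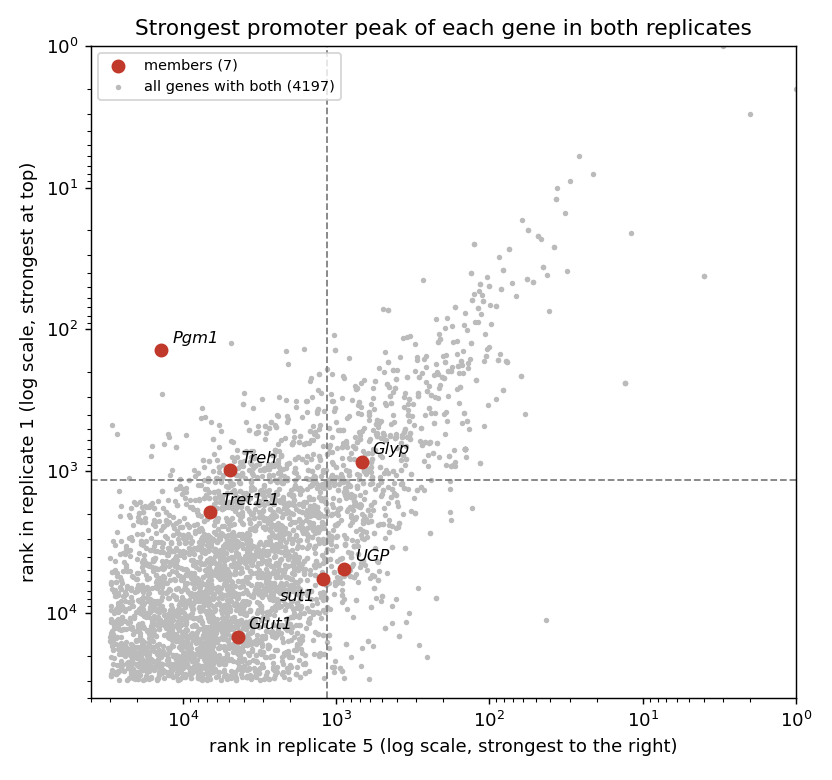
Rank of the strongest promoter peak in replicate 5 (x axis, log scale, strongest to the right) and replicate 1 (y axis, log scale, strongest at the top) for the 7 sugar genes with both (red) and all 4197 genes with both (grey); dashed lines mark rank 1146. Glyp is the red point inside both lines, and Pgm1, at 13813 and 140, stands at the edge of the grey cloud.

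The genes outside the lists whose pair of ranks was most like that of Glyp were CG17271 and RpS20, which shared 1 peak (rank 670 in replicate 5 and 894 in replicate 1). For Pgm1 they were CG31612 (rank 13693 in replicate 5 and 284 in replicate 1) and CG17896 (4888 in replicate 5 and 125 in replicate 1). Likeness was the sum of absolute log10 rank differences over the 2 lists, 0.0267 for CG17271 and RpS20, 0.311 for CG31612 and 0.50 for CG17896.

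Summits of the relaxed lists, promoter peaks included, were also counted along the whole of each gene. From 2 kb before each gene to its end, 150.749 kb in all, the 9 genes held 48 pooled summits, 40 in replicate 5 and 46 in replicate 1. Per 10 kb this was 3.18 in the pooled list, against 2.57 over all genes. In replicate 5 it was 2.65, against 2.83, and in replicate 1 it was 3.05, against 2.52. These densities rest on Glut1, whose length makes up much of the total. Without it, a comparison added after seeing the data, the other 8 genes held 38 pooled summits, 36 in replicate 5 and 28 in replicate 1 over 69.034 kb. Their density was 5.50 per 10 kb pooled, 5.21 in replicate 5 and 4.06 in replicate 1. These values exceed those of all genes, but no long gene was taken out of the latter, so the sides are unlike. The density of all genes is their summed count over their summed length, so long genes weigh most in it too. Treh held 12 of the pooled summits and Glut1 10, and Glut1 had 4 summits in replicate 5 and 18 in replicate 1.

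Most of these summits were not shared. Of the 48 pooled summits, 7 (14.6%) had a summit within 100 bp in both replicates, against 22.8% of all 28423 pooled summits. Another 20 had one in replicate 5 alone, 13 in replicate 1 alone and 8 in neither. The 7 belonged to Glyp, Treh, UGP, Tret1-1 and Glut1 with 1 each and sut1 with 2. Among the 1146 optimal peaks the share was 90.2%.

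**Figure D4:**
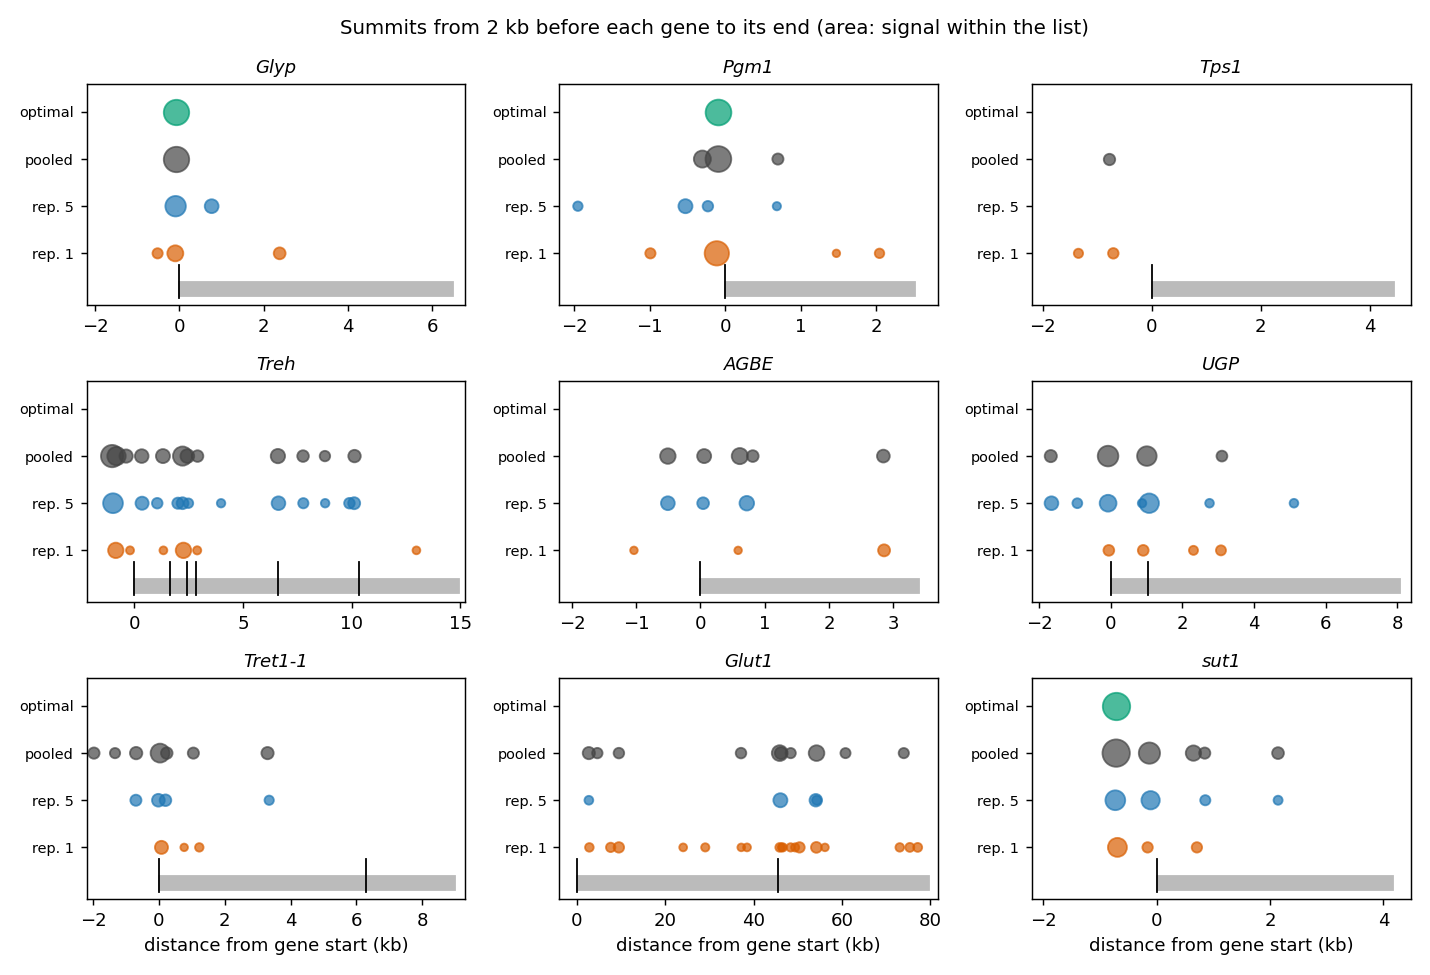
Summits from 2 kb before each gene to its end in the optimal, pooled, replicate 5 and replicate 1 lists, against distance from the gene start in kb, read in the direction of transcription; circle area follows the signal, the grey bar is the gene and the black ticks are its TSSs. The optimal summits of Glyp and Pgm1 stand just before the gene start, that of sut1 stands at −712 bp, and the other 6 genes have none.

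The 101 bp around each of the 8 pooled promoter summits were searched for short words on both strands. CACGTG was found at none of the 8, against 1.34% of the 1117 nuclear optimal windows and 1.23% of the 28389 nuclear pooled windows. Its paired form, 2 copies 5 bp apart with up to 2 mismatches, was found at none, against 0.269% of optimal and 0.232% of pooled windows. Other CANNTG words, which exclude CACGTG, were found at 4 of 8 (Glyp, Treh, UGP and Glut1), against 38.0% of pooled windows. With a background share of 1.23%, a count of 0 in 8 windows lies near the background.

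GAGAG, the word bound by GAGA factor, was found at 3 of 8 summits (Glyp, AGBE and Glut1), against 14.4% of optimal and 13.8% of pooled windows. It was absent within 25 bp of all 8, a window for which no background share was counted. TTAAAA was found at none, against 27.0% of optimal and 20.2% of pooled windows, and TATCGATA at none, against 2.69% of optimal and 0.986% of pooled windows. ACAGTG was found at Glyp alone, against 11.8% of optimal and 5.74% of pooled windows. ACACTG was found at Treh alone, against 8.68% of optimal and 5.43% of pooled windows. Both words were added after the sequences had been seen. GC content averaged 43.2% over the 8 windows, with 28.7% at Treh and 56.4% at AGBE as its ends, against 37.7% in optimal and 40.1% in pooled windows. The part of base composition in these counts was not tested.

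Other genes of the pathway were read from a list of 22, of which 21 matched the annotation. An optimal promoter peak was found at 2 of the 21, nebu and Hex-A, against the 6.17% of all genes, and an optimal summit from 2 kb before the gene to its end at 4, against 9.56%. In the pooled relaxed list 11 of 21 had a promoter peak, against 47.5%. In both replicates 6 did, against 30.0%, and 1, nebu, passed the strongest 1146 in both, against 3.45%. In at least 1 replicate 2 passed, against 8.44%. In the relaxed lists the pathway shares were thus near those of all genes.

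The gene nebu, for a sugar carrier of the SLC2 family, had the strongest optimal peak of these genes and the 9 members. It ranked 96 in the optimal list (signal 240.2, −149 bp), 113 in replicate 5 (signal 126.3) and 78 in replicate 1 (signal 110.0). The window is shown as the strongest site of the pathway. It is chr3L:12843205-12843305, dm6, minus strand, centred on the optimal summit, with CTCTC, the reverse complement of GAGAG, in capitals.
nebu: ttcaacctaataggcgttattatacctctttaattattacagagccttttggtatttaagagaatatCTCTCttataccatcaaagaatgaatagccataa
The window held neither CACGTG nor an inverted repeat with arms of 10 bp or more. That limit equals the arm length at Glyp, and shorter arms were not searched for.

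Hex-A, for a hexokinase that phosphorylates glucose after uptake, had 2 optimal summits. That at −209 bp ranked 625 (signal 95.5), and its strongest promoter peak ranked 1565 in replicate 5 and 321 in replicate 1. That at −975 bp ranked 896 (signal 82.1). Gyg, for glycogenin, the protein primer of glycogen, had an optimal summit at rank 460 (signal 108.9), at −961 bp from a TSS and in an intron of CG44245. Pgm2a, a relative of Pgm1, had one at rank 802 (signal 86.1), at −1067 bp and 14 bp from the TSS of tsu.

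The glycogen synthase gene Glys had a promoter peak at rank 5357 in the pooled list (signal 34.9, +59 bp), 4362 in replicate 5 and 12225 in replicate 1. Pgm2b, sut2, sut3, Glut3 and Akh, the gene of adipokinetic hormone, had no summit in any list from 2 kb before the gene to its end. The share of all genes without a summit there in any list was 17.0%. No promoter summit in any list was found for Tps1 among the 9 members and for 7 of the 21 pathway genes, these 5 with Tret1-2 and CG5177, against 36.3% of all genes.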

How the data were processed

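ChIP-seq peak lists of 1 group with 2 biological replicates were used. Per the text files deposited with them, the authors called each relaxed list on a replicate's alignments and a control alignment shared by both replicates, so errors of the control are shared. The sources used here name no aligner, peak caller or IDR threshold, and read depth is unknown. The signal value of each peak is the authors' deposited measure, of unstated scale, and was used here to order the peaks of each list. The deposited −log10 q-value took 1 value over all optimal peaks and was not used to rank. The dm3 lists were not analysed here.

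Summits were taken 1-based on dm6 and set against the Ensembl release 115 annotation (BDGP 6.54), with sequences from the RefSeq Release 6 genome, by Python 3.11.15, numpy 2.4.6 and pandas 2.3.3; the steps were tested on simulated lists. The reach of a gene ran from 2000 bp before it to its end. Summits of different lists within 100 bp were matched. A summit near more than 1 gene was counted for all of them. Named genes were the members, list genes with an optimal or top-ranked peak, genes sharing a member's summit and the 2 genes most like each member with an optimal promoter peak; CG4259, SsRbeta, CG10527, Psf2, Roc2, CG44245, tsu, Glys and the 7 genes without promoter summits were named after their values were seen. The members and lists were chosen with earlier results of these data known, and no test was run.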

Additional observations from a re-analysis of the deposited data

How the results depend on the processing

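Over 50 alternative settings of the 8 main results, 40 values stayed within a set limit and 10 moved. The limit was 1.5 times the value for a count. For a median it was the main median over the square root of 2, not a spread measured apart from it. Some settings could hardly move a count. The members are nuclear genes, and the strongest pooled peaks nearly repeat the optimal list (Glyp ranked 714 and 715). The 40 thus does not measure robustness. With the 573 strongest optimal peaks alone, the members' optimal promoter count was 0 and the pathway count 1, against 3.15% of all genes. The members' count to the gene end was 1 (sut1), against 5.13%. The pathway count was 1 at 200 bp (4.38% of all genes) and 0 with the TSS inside the whole peak (3.7%). Where a replicate was left out, the strongest 1146 peaks of the other stood in for the optimal list. The pathway count was then 1 (6.25%) with replicate 5 and 2 (5.64%) with replicate 1. The members' count among the strongest 1146 in both replicates was 3 at 1000 bp (Glyp, Treh and sut1), against 4.23% of all genes. It was 0 with the strongest 573 peaks of each, against 1.92%. With a single replicate it was 2 in replicate 5 (Glyp and UGP), against 6.25%. In replicate 1 it was 3 (Glyp, Pgm1 and Treh), against 5.64%. The members' optimal promoter counts with a replicate left out are these same 2 counts, not further ones. Pgm1 passed in replicate 1 alone, so it rests on that replicate. The causes were not tested. At 1000 bp the log2 rank ratios of Treh and sut1 changed sign, to −0.25 and 1.00, and that of Pgm1 was 4.98. No CACGTG was found at the 8 summits under any window, whereas GAGAG counts ran from 0 at 25 bp to 6 over whole peaks, and TTAAAA from 0 to 5. Wider windows hold more sequence, and the shares of all summits were not counted at these other windows. Without Glut1 the members' summits per 10 kb moved to 5.50 pooled, 5.21 in replicate 5 and 4.06 in replicate 1. No paired analysis was possible because there is 1 group, so no groups share replicate numbers. Peak ranks deep in the relaxed lists sit near background, and the unknown read depth limits every absence stated here.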
